A study of Mus musculus with 13 samples.

Results

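The DNA of a myeloid fraction (M-MPAL) and of a T-lymphoid fraction (T-MPAL) of mixed-phenotype acute leukaemia was compared by variant calls, alternative read shares and copy number on chromosomes 1 to 19. A call was kept outside segmental duplications when it had 10 or more reads, 4 or more of them with the alternative allele and 0.2 or more as their share, and a quality score of 100 or more. An allele called at any depth in any of the 5 other libraries was dropped. This left 2486 single-base variants (SNVs) of 76836 distinct SNVs called over all libraries, and 5055 small insertions and deletions (INDELs). A variant kept in both fractions was counted as shared, and a variant kept in 1 fraction with no call in the other as M-MPAL only or T-MPAL only.

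Both fractions came from bone marrow of C57BL/6 mice aged 8 to 10 weeks in which retroviral N-Myc drives leukaemia, and both hold GFP+ cells, 1000000 per library. M-MPAL cells were positive for Mac1/Gr1 and negative for B220 and CD3/4/8. T-MPAL cells were positive for CD3/4/8 and negative for Mac1/Gr1 and B220. The empty control was 1000000 GFP+ cells of empty control mice of the same strain, tissue and age, and the other 4 libraries were B-ALL, T-ALL, AML and AUL. Each group had 1 library, so that no difference has a replicate check. The labels do not say whether a single mouse gave both fractions, and they name no matched normal DNA, so that inherited and acquired variants cannot be told apart.

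Mixed-phenotype acute leukaemia carries markers of more than 1 blood lineage, in a single blast population or in separate populations such as those sorted here. Variants found in both populations may be inherited or may come from a common ancestor cell, while variants found in a single population may arise after the lineages part. In diploid DNA an inherited or early acquired variant on a single copy is read in about equal numbers with the other allele. Gain of a copy, loss of a copy and replacement of a copy by the other all shift that balance. Developing T cells also cut DNA out of their T-cell receptor loci.

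The longest INDELs outside repeats are shown as examples of the calls, and they are not typical of their classes, whose INDELs lie mostly in repeats. The 3 longest of each class are given, over the chromosomes whose sequence is printed here and leaving out gains of the empty control and sites with over 60 reads. The sequence is the plus strand of mm10, 5′ to 3′, with the deleted or inserted bases in capitals after the lower-case base before them. The first 3 are shared, the next 3 are M-MPAL only and the last 3 are T-MPAL only.
chr5:6293634-6293646, deletion: gGAATTTAATTGT
chr10:28474188-28474196, deletion in a Ptprk intron: aTAAGACAC
chr4:127591633-127591640, deletion: gGGGTAGT
chr4:149810573-149810607, deletion: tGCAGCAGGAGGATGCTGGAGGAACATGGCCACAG
chr14:74382013, insertion: tTCACACACACACAC
chr8:42411961, insertion: tTATCTATC
chr3:3939390-3939432, deletion: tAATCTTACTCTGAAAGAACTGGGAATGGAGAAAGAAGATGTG
chr9:101097694-101097714, deletion in an Msl2 intron: cCACAGTGATCCACAGTGACA
chr2:33048104, insertion in a Garnl3 intron: tGTGCTCCCTCAGGTCG
The shared 12-base deletion on chromosome 5 was on 7 of 21 reads in M-MPAL and 6 of 17 reads in T-MPAL. The deletion in Ptprk, a receptor-type tyrosine phosphatase gene, was on 10 of 19 reads in M-MPAL and 20 of 42 reads in T-MPAL. The 34-base deletion of M-MPAL only was on 22 of 22 reads, while the 42-base deletion of T-MPAL only was on 8 of 22 reads. The deletion in Msl2, a gene of a histone acetylation complex, was on 9 of 20 reads of T-MPAL.

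The first question was how much of each fraction's set the other fraction also carried. M-MPAL held 1763 kept SNVs and T-MPAL 1199. Of these, 476 (95% Poisson interval 434 to 521) were shared, which was 27% of the M-MPAL set (24.9 to 29.1) and 39.7% of the T-MPAL set (36.9 to 42.5). M-MPAL alone had 1235 SNVs (1167 to 1306) and T-MPAL alone 661 (612 to 713). A further 52 SNVs kept in M-MPAL had a weak call in T-MPAL, and 62 kept in T-MPAL had a weak call in M-MPAL. These intervals and those of counts and percentages below are exact 95% intervals for counting error alone: reads that carry no molecular identifiers are not independent molecules. Medians below have exact 95% order-statistic intervals over sites, and the sites of a single library are not replicates.

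**Figure D1:**
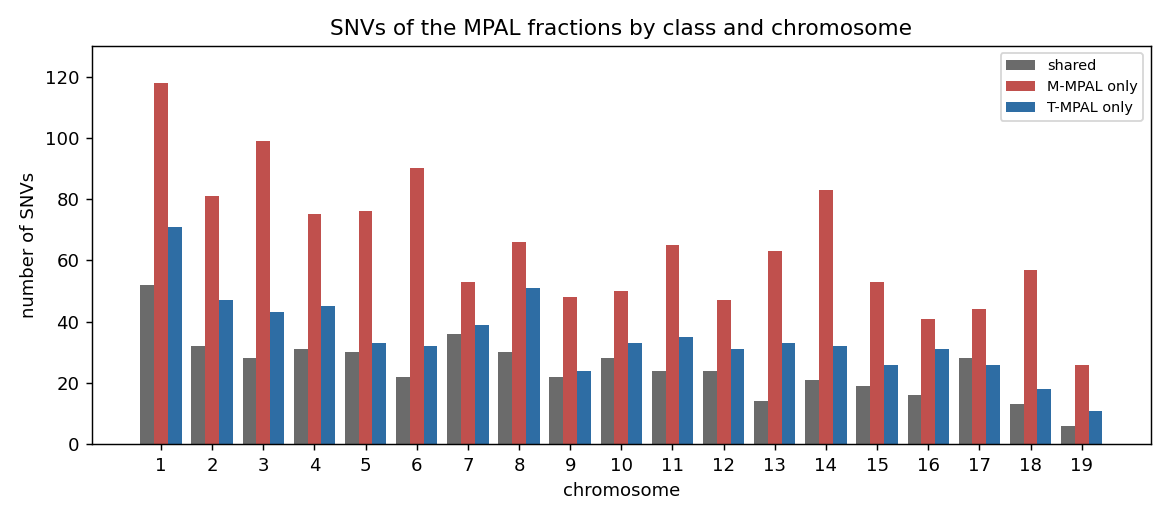
Number of SNVs (vertical axis) on each of chromosomes 1 to 19 (horizontal axis) that were shared by both fractions (grey), in M-MPAL only (red) or in T-MPAL only (blue). The M-MPAL only bar is the tallest of the 3 on every chromosome.

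M-MPAL-only SNVs outnumbered T-MPAL-only SNVs on each of the 19 chromosomes. M-MPAL-only SNVs made up from 56.4% (chromosome 7) to 81.3% (chromosome 19) of the SNVs kept in M-MPAL, with 80.3% (69.1 to 88.8) on chromosome 18 and 63.6 to 92.8 as the interval of chromosome 19. Chromosome 13 came next with 78.8% (68.2 to 87.1), so that these intervals overlap. T-MPAL-only SNVs made up from 48.1% (chromosome 17) to 67.3% (chromosome 13) of the SNVs kept in T-MPAL.

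The same rule applied to other pairs gives a scale for the overlap. B-ALL and AML shared 310 SNVs, 56.3% of the B-ALL set and 52.1% of the AML set. M-MPAL shared 6 SNVs with the empty control, 0.483% of 1243 kept in M-MPAL and 2.94% of 204 kept in the control. T-MPAL shared 3 with it, 0.448% of 669 kept in T-MPAL and 1.51% of 199 kept in the control. Each pair drops the alleles of all 5 libraries outside it, here also those of the other MPAL fraction, so the sets differ in size between pairs. A missed call can also turn a shared variant into one of a single fraction. Among alleles kept in M-MPAL and called in all 5 other libraries, 6463 of 6565 (98.4%) were called in T-MPAL too, and among those kept in T-MPAL 6445 of 6586 (97.9%) were called in M-MPAL. At those with a share of 0.3 to 0.7 it was 2270 of 2305 (98.5%) and 2315 of 2393 (96.7%). Alleles called in 5 other libraries are easy to call, so these rates say little of calls missed at sites of a single fraction. A site with no call has no depth in the tables, so its coverage is not known.

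INDELs were counted in the same way. M-MPAL and T-MPAL shared 432 INDELs (392 to 475), 13.9% of the M-MPAL set and 18.2% of the T-MPAL set, while 2352 were in M-MPAL only and 1630 in T-MPAL only. A further 326 INDELs kept in M-MPAL had a weak call in T-MPAL, and 315 kept in T-MPAL had a weak call in M-MPAL. With weak calls counted as shared, the overlap was 31.3% of the M-MPAL side and 39.7% of the T-MPAL side for INDELs, against 32.3% and 47.2% for SNVs. Repeats held 94.2% of the shared INDELs, 97.7% of those of M-MPAL only and 97.4% of those of T-MPAL only, against 48.7%, 46.0% and 50.7% of the SNVs of these classes. Of the INDELs of M-MPAL only, 545 (23.2%) lay within 10 bases of another INDEL call of T-MPAL, and of those of T-MPAL only, 479 (29.4%) lay that close to a call of M-MPAL. Outside repeats the classes held 25 shared INDELs, 54 of M-MPAL only and 42 of T-MPAL only, from which the example sequences were taken.

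Alternative read shares were then compared. A share depends on how many copies of the chromosome carry the variant and on how many of the cells do, and these were not told apart here. Over all chromosomes shared SNVs had medians of 0.50 for M-MPAL and 0.513 for T-MPAL, at a median depth of 25 and 24 reads. SNVs of M-MPAL only had a median of 0.44 (0.429 to 0.45) at 24 reads, and SNVs of T-MPAL only 0.471 (0.462 to 0.48) at 23 reads. Both medians lay below those of the shared sites, which had to pass the minimums in both fractions. Sites with a weak call in either fraction are not in the shared class. On the weak side their medians were 0.36 in T-MPAL and 0.316 in M-MPAL. How much of the difference follows from these class rules was not tested. Of the M-MPAL-only SNVs 223 of 1235 had a share under 0.35, and of the T-MPAL-only SNVs 118 of 661.

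Chromosomes 18 and 19 set the fractions apart. Over their 19 shared SNVs the medians were 0.529 for M-MPAL and 1.00 for T-MPAL, and 1 of 19 sites reached 0.9 in M-MPAL against 17 of 19 in T-MPAL. Outside chromosomes 15, 18 and 19 the numbers reaching 0.9 were 15 of 438 sites in each fraction. On chromosome 18 the site at position 62217746 had the alternative base on 16 of 40 reads in M-MPAL and 23 of 23 in T-MPAL, and the site at position 86540759 on 18 of 34 and 33 of 33. The first kept both alleles in M-MPAL and showed a single allele in T-MPAL, and so did the second. Lrp5, a Wnt co-receptor gene on chromosome 19, had an intronic SNV on 15 of 36 reads in M-MPAL and 35 of 35 in T-MPAL. Uhrf2, which encodes a ubiquitin ligase of chromatin, had an intronic SNV on 19 of 37 reads in M-MPAL and 24 of 24 in T-MPAL. The glutamate transporter gene Slc1a1 had 11 of 20 reads in M-MPAL and 14 of 14 in T-MPAL, and the sorting receptor gene Sorcs3 had 13 of 28 and 23 of 24. These sites run from position 3681557 to position 48598163 of chromosome 19. Atp9b on chromosome 18 was among the sites below a share of 0.9 in T-MPAL, with 11 of 13 reads in M-MPAL and 8 of 10 in T-MPAL.

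**Figure D2:**
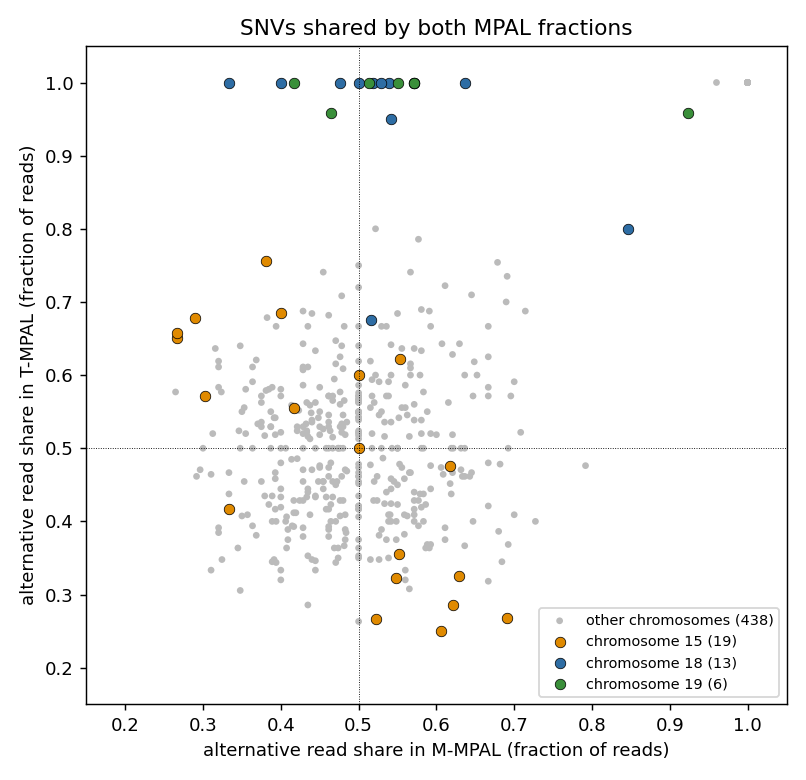
Alternative read share in M-MPAL (horizontal axis, fraction of reads) against that in T-MPAL (vertical axis, fraction of reads) for the 476 shared SNVs. Sites of chromosomes 18 (13, blue) and 19 (6, green) lie mostly along the top edge, sites of chromosome 15 (19, orange) mostly in the upper left and lower right of the plot, and the 438 other sites (grey) mostly around 0.5 in both; dotted lines mark a share of 0.5, and some points coincide.

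A two-sided Fisher's exact test compared alternative and other reads of both libraries at each of 25644 SNVs called in both fractions with at least 10 reads in each, with Benjamini-Hochberg adjustment over all of them. It compares the reads of these libraries, not conditions. At an adjusted p under 0.05 it called 18 sites (0.0702% of those tested), of which 3 (0.0117%) were higher in M-MPAL and 15 (0.0585%) higher in T-MPAL. Of the 476 shared SNVs it called 5, or 1.05% (0.342 to 2.43), all higher in T-MPAL, with 3 on chromosome 18 and 2 on chromosome 19. By the Fisher's exact test the called sites were Lrp5 (adjusted p = 7.39e-05), Uhrf2 (adjusted p = 0.0339), the chromosome 18 sites at positions 62217746 and 86540759 given above (adjusted p = 0.00141 and 0.00699) and the site at position 16883879, with 8 of 24 reads in M-MPAL and 22 of 22 in T-MPAL (adjusted p = 0.0021). At about 25 reads a site, many differences cannot pass an adjustment over 25644 sites. At an unadjusted p under 0.05 there were 11 of 13 sites on chromosome 18, 5 of 6 on chromosome 19, 10 of 19 on chromosome 15 and 6 of 438 on the other chromosomes.

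Variants found in a single fraction also differed on these chromosomes. None of the 83 M-MPAL-only SNVs on chromosomes 18 and 19 reached a share of 0.9 (0 to 4.35%), and their median share was 0.44. Of 29 T-MPAL-only SNVs on chromosomes 18 and 19, 17 (58.6%, 38.9 to 76.5) reached a share of 0.9, against 5 of 606 (0.825%, 0.268 to 1.91) outside chromosomes 15, 18 and 19. The T-MPAL-only sites fell into high and intermediate values, with 17 at 0.9 or more, 0 between 0.65 and 0.9 and 12 below 0.65. Rorb, a nuclear receptor gene on chromosome 19, had an intronic SNV on 15 of 31 reads and Vti1a, a vesicle SNARE gene, on 7 of 18, both at intermediate shares. Hpse2, also on chromosome 19, had one on 10 of 11 reads. Repeats held 13 of the 17 high sites: the median share in T-MPAL was 0.96 over the 19 T-MPAL-only sites in repeats and 0.511 over the 10 outside them, where 4 of 10 reached 0.9. For the shared SNVs this split made no difference to the median, which was 1.00 in T-MPAL both over 9 sites in repeats and over 10 outside them.

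**Figure D3:**
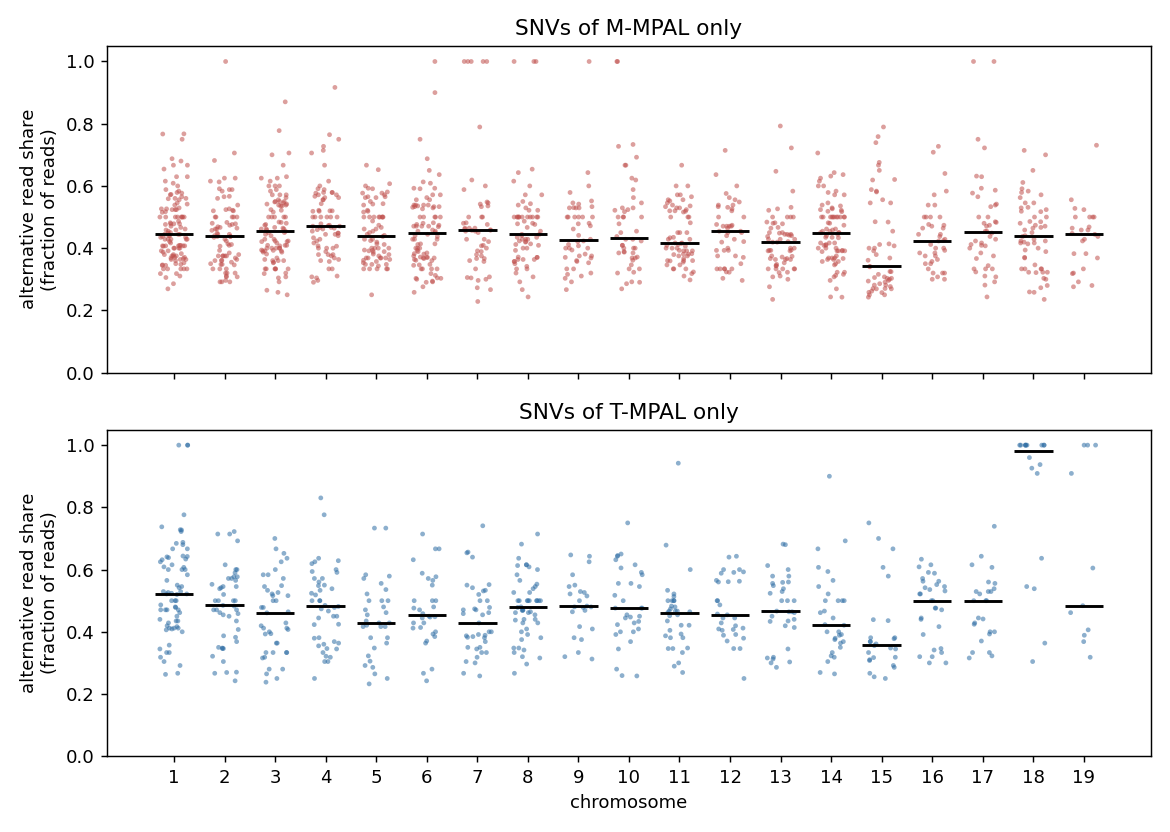
Alternative read share (vertical axes, fraction of reads) of each SNV found in M-MPAL only (upper panel, red) and in T-MPAL only (lower panel, blue) on chromosomes 1 to 19 (horizontal axis), with black bars at each chromosome's median. On chromosome 18 the median is 0.438 (M-MPAL) and 0.98 (T-MPAL), and on chromosome 15 both medians are low, 0.341 (M-MPAL) and 0.358 (T-MPAL).

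INDELs of chromosomes 18 and 19 gave a second reading. The 26 shared INDELs there had medians of 0.545 for M-MPAL and 1.00 for T-MPAL, and 5 of 26 reached 0.9 in M-MPAL against 20 of 26 in T-MPAL. A deletion or insertion in Pacs1, a protein sorting gene on chromosome 19, lay outside repeats and was on 16 of 30 reads in M-MPAL and 35 of 36 in T-MPAL. That in Matr3, a nuclear matrix protein gene on chromosome 18, was on 8 of 18 reads in M-MPAL and 15 of 15 in T-MPAL. Of the INDELs in 1 fraction, 11 of 167 in M-MPAL only reached 0.9 (6.59%, 3.33 to 11.5) against 39 of 98 in T-MPAL only (39.8%, 30.0 to 50.2). Elsewhere, outside chromosome 15 too, the values were 9.89% in M-MPAL only and 12.5% in T-MPAL only.

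Copy number calls on chromosomes 18 and 19 were small in both fractions. Losses summed to 0.042 Mb for M-MPAL and 0.028 Mb for T-MPAL on chromosome 18, and no loss was called on chromosome 19 in either. Depth was also read without the copy number calls, first at SNVs called in all 7 libraries, as their median depth on a chromosome over that of the library. On chromosome 18 this was 0.851 in M-MPAL and 0.83 in T-MPAL, against 0.837 in the empty control, and on chromosome 19 it was 0.426, 0.415 and 0.43. Because this measure differed widely between chromosomes in the control too, a second one was added after seeing the data: the depth at INDELs called in both fractions and the control over the depth in the control, scaled to each library's median over 11632 such sites. That ratio was 1.00 for M-MPAL (0.955 to 1.00) and 0.952 for T-MPAL (0.909 to 1.00) on chromosome 18, and 1.00 in both on chromosome 19. Neither measure set T-MPAL clearly below M-MPAL on the chromosomes where its shared sites showed a single allele.

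Chromosome 15 was gained in both fractions, with calls of 3 copies in place of the normal 2 over nearly its whole length. Gains summed to 99.574 Mb for M-MPAL and 100.57 Mb for T-MPAL, against 0.232 Mb in the empty control, and 3 copies made up 99.97% of that length in M-MPAL and 99.8% in T-MPAL. The SNV depth measure was 1.21 in M-MPAL and 1.32 in T-MPAL, against 0.651 in the control. The INDEL depth ratio was 1.40 (1.36 to 1.46) in M-MPAL and 1.51 (1.45 to 1.56) in T-MPAL. Genes of the lists that lay whole inside gains of both fractions were Myc, the Myc family member that gives the family its name, the T-lymphoid cytokine receptor gene Il7r, the granulocyte marker gene Ly6g, the cohesin gene Rad21, the chromatin genes Arid2, Ep300 and Kmt2d, and Xrcc6, a gene of DNA end joining. Ly6g codes for an antigen that Gr1 antibodies bind.

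The shares of shared SNVs on chromosome 15 were not alike in the fractions. On a chromosome with 3 copies a variant carried by all cells has an expected share of 33.3% on 1 copy and of 66.7% on 2 copies. In M-MPAL the 19 shared sites ran from 0.267 to 0.69 and in T-MPAL from 0.25 to 0.756. At 8 sites the share was above 0.5 in M-MPAL and below it in T-MPAL, and at 7 sites it was the other way round, so that 15 of 19 (78.9%, 54.4 to 93.9) lay on opposite sides of 0.5. Outside chromosomes 15, 18 and 19 this held for 177 of 438 shared SNVs (40.4%, 35.8 to 45.2), many of them close to 0.5.

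Named genes on chromosome 15 show both directions. Cntn1, a neuronal adhesion gene, had an intronic SNV on 29 of 42 reads in M-MPAL and 11 of 41 in T-MPAL, and Oxr1, a gene of oxidation resistance, on 20 of 33 and 9 of 36. These were high in M-MPAL and low in T-MPAL. Stk3, a kinase gene of the Hippo pathway, had an intronic SNV on 16 of 42 reads in M-MPAL and 31 of 41 in T-MPAL. Dmc1, a meiotic recombinase gene, had 11 of 38 reads in M-MPAL and 21 of 31 in T-MPAL, and a 3′ UTR site of Phf20l1 had 8 of 30 and 28 of 43. These were low in M-MPAL and high in T-MPAL. None of the 19 sites passed the adjusted Fisher's exact test, and the lowest adjusted p was 0.153, at Cntn1. Both directions were spread along the chromosome. In M-MPAL the share was above 0.5 in Ugt3a2 (position 9342090), Oxr1 (41736390), Ptp4a3 (73748438) and Cntn1 (92329212). It was below 0.5 in Stk3 (34920697), Phf20l1 (66642887) and Dmc1 (79579583). In T-MPAL each of these lay on the other side of 0.5. Dennd6b (89189348) lay above 0.5 in both, on 26 of 47 reads in M-MPAL and 28 of 45 in T-MPAL. Neighbouring sites did not strictly alternate: after Ptp4a3 the intergenic site at position 76365574 was again higher in M-MPAL (22 of 35 reads against 13 of 40).

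SNVs of a single fraction on chromosome 15 had low shares in both. The median was 0.341 (0.303 to 0.412) over 53 M-MPAL-only sites and 0.358 (0.317 to 0.381) over 26 T-MPAL-only sites, against 0.444 and 0.471 outside chromosomes 15, 18 and 19. Among the M-MPAL sites 27 of 53 were under 0.35, and 12 of 26 among the T-MPAL sites. Each fraction also had some higher sites, with 6 of 53 and 3 of 26 between 0.65 and 0.9. Shared INDELs on chromosome 15 lay on opposite sides of 0.5 at 12 of 32 sites (37.5%, 21.1 to 56.3) against 102 of 374 (27.3%, 22.8 to 32.1) outside chromosomes 15, 18 and 19, so that these intervals overlap. On the same side of 0.5 in both fractions were 14 of the 32. Among the opposite sites, an INDEL in a Pced1b intron had 8 of 33 reads in M-MPAL and 17 of 26 in T-MPAL, and one in a March11 intron 19 of 30 and 8 of 25. Among those on the same side, an INDEL in Trio had 8 of 26 reads in M-MPAL and 9 of 27 in T-MPAL, and one in Slc2a13 22 of 24 and 12 of 19.

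Copy number calls on chromosome 17 differed between the fractions. Gains summed to 0.068 Mb in 10 calls in M-MPAL and 7.177 Mb in 51 calls in T-MPAL, against 0.195 Mb in 19 calls in the empty control. The T-MPAL gains were called at 3 copies over 7.111 Mb and the longest spanned 1.114 Mb, over vomeronasal receptor genes. The SNV depth measure on chromosome 17 was 0.638 in M-MPAL and 0.755 in T-MPAL, against 0.674 in the control. The INDEL depth ratio there was 1.00 (0.917 to 1.00) in M-MPAL and 1.08 (1.05 to 1.14) in T-MPAL. The other chromosomes apart from 15 and 17 lay between 0.938 and 1.06 in M-MPAL and between 0.922 and 1.00 in T-MPAL. The higher depth was not limited to the called regions: the depth of T-MPAL over that of M-MPAL had a median of 1.13 (1.04 to 1.20) at 92 INDELs inside the T-MPAL gains and 1.10 (1.07 to 1.13) at 771 INDELs outside them. On chromosomes other than 15 and 17 to 19 it was 0.96. Depth inside the called gains was thus close to that outside them, and below the ratio of 3 to 2 copies. Whether these regions hold 3 copies was not tested further.

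**Figure D4:**
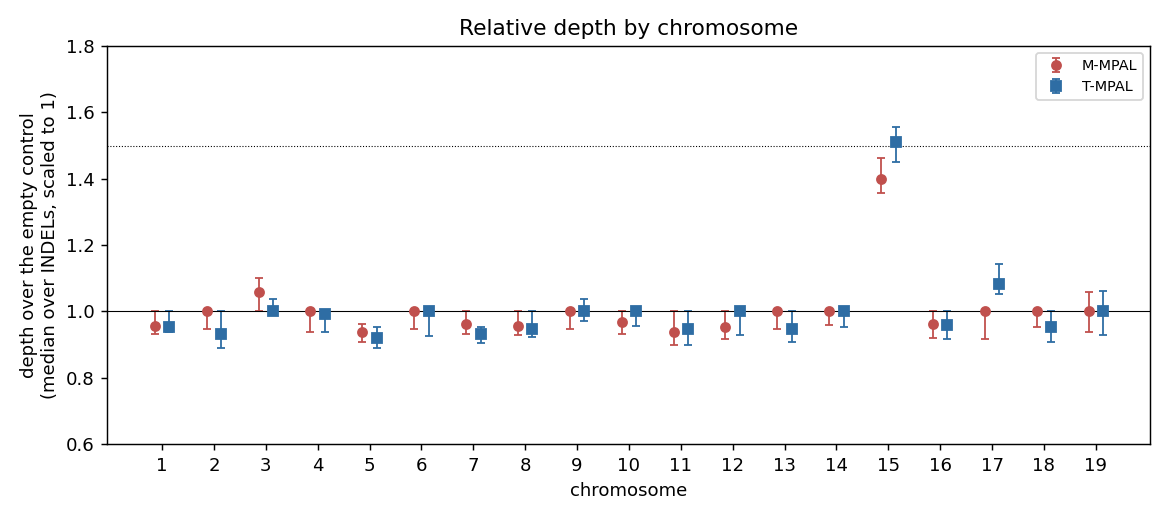
Depth of M-MPAL (red circles) and T-MPAL (blue squares) over the empty control at INDELs called in all 3 libraries (vertical axis, ratio scaled to 1) on chromosomes 1 to 19 (horizontal axis). Points are medians with exact 95% order-statistic intervals, the solid line marks 1 and the dotted line the ratio of 3 to 2 copies; both fractions are high on chromosome 15, and T-MPAL at 1.08 on chromosome 17.

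Gains and losses outside chromosome 15 were mostly small. Gains summed to 1.788 Mb for M-MPAL and 8.329 Mb for T-MPAL, against 3.588 Mb in the empty control, and losses to 0.405 Mb, 0.897 Mb and 0.283 Mb. Of the calls that no other library with a copy number table used here overlapped, 2 gains and 0 losses were in both fractions, out of 26 gains and 19 losses in M-MPAL and 61 gains and 22 losses in T-MPAL. Calls of at least 20 kb in a single fraction numbered 7 gains and 7 losses in M-MPAL and 27 gains and 9 losses in T-MPAL. The genes named from these calls were picked with their values in view. In M-MPAL the losses with an annotated gene were 24 kb with part of Dpp10, 46 kb with part of Malrd1 and 45 kb with Alx1, a homeobox gene. Each was to 1 copy, and the longest M-MPAL loss, 70 kb on chromosome 16, held no annotated gene. In the same fraction 96 kb of chromosome 7 was gained with the interferon regulator gene Irf7 and the signalling gene Hras. T-MPAL had lost 92 kb of chromosome 3 with the interferon-induced genes Ifi44 and Ifi44l, and 36 kb in the glypican gene Gpc5. Its longest loss, 251 kb on chromosome 1, held no annotated gene. The gains called in T-MPAL on chromosome 17 held Pim1, a kinase gene, Cdkn1a, a gene of a cell cycle inhibitor, and Sos1, a Ras activator gene. No gene of the lists lay inside a call outside chromosome 15.

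Among the antigen receptor loci, a single call was made in either fraction. T-MPAL had 0 copies of 161 kb of the T-cell receptor alpha and delta locus (chromosome 14, 53962001 to 54123000), while M-MPAL and the empty control had no call there, and Trb, Trg, Igh, Igk and Igl had none in all 3. The lost stretch holds the delta segments Trdv4, Trdd1 and Trdd2 and the pseudogenes Trav23 and Trdv3, by the RefSeq table of GRCm38.p6. Variant calls inside it at any depth numbered 1 in M-MPAL, on 9 reads, and 0 in T-MPAL, against 3 in the empty control. They numbered 0 in T-ALL, 5 in AUL and 9 each in B-ALL and AML, with median depths of 12 reads in AUL, 3 in B-ALL and 5 in AML, so that an absence of calls was not particular to T-MPAL. Calls in the flanks were as deep in T-MPAL as in M-MPAL, with a median of 16 reads in each and 15 in the control. Whether the call comes from receptor rearrangement was not tested.

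The kinds of base change differed between the sets of single fractions. C>T changes, counted with their complement, made up 45.3% (42.5 to 48.1) of M-MPAL-only SNVs and 32.4% (28.8 to 36.1) of T-MPAL-only SNVs. T>C changes made up 20.2% (18 to 22.5) and 28.7% (25.3 to 32.4), so that neither pair of intervals overlaps. T>A changes made up 13.4% (11.6 to 15.5) in M-MPAL only and 9.68% (7.54 to 12.2) in T-MPAL only. Shared SNVs had C>T at 48.7% (44.2 to 53.3) and T>C at 14.9% (11.8 to 18.4). The 193 SNVs of the empty control alone had 44.6% (37.4 to 51.9) and 11.4% (7.28 to 16.7), with intervals that overlap those of the shared SNVs. For C>T the M-MPAL-only value lay nearer to the control than the shared value did. C>A changes made up 13.7% (10.7 to 17.1) of shared SNVs and 20.7% (15.2 to 27.1) of those of the control. Neighbouring SNVs are not independent, and these shares describe single libraries.

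**Figure D5:**
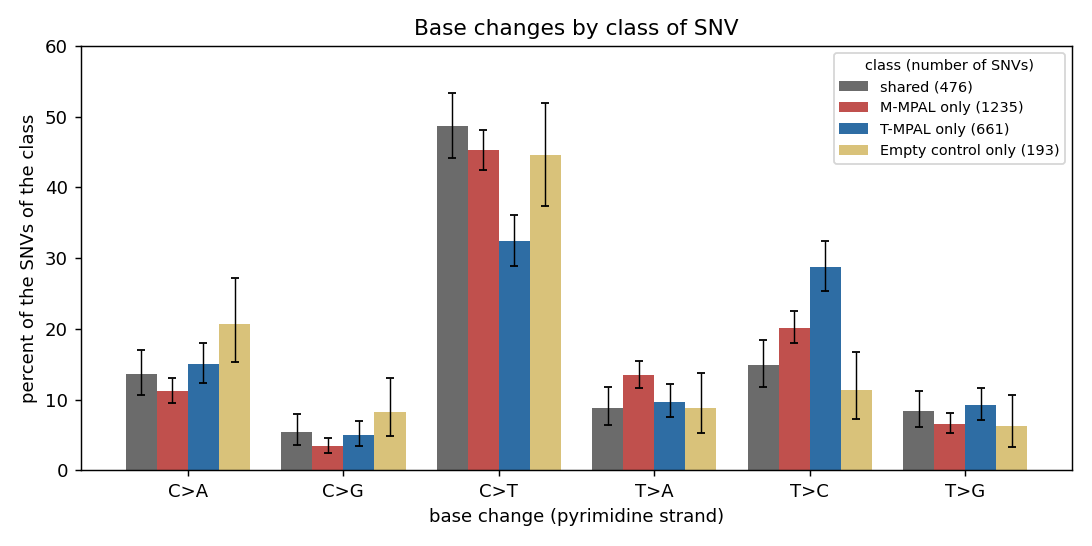
Percent of SNVs (vertical axis) in each of 6 base change classes (horizontal axis, written from the pyrimidine of the pair) for the 476 shared, 1235 M-MPAL-only and 661 T-MPAL-only SNVs and the 193 SNVs of the empty control alone. Bars start at 0 and lines are exact Clopper-Pearson 95% intervals; T-MPAL only has the lowest C>T bar and the highest T>C bar of the 4.

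The C>T share was higher at low read shares in M-MPAL, while in T-MPAL the values lay close together. Among M-MPAL-only SNVs it was 55.2% (48.4 to 61.8) of the 223 with a read share under 0.35 and 43.1% (40.0 to 46.2) of the other 1012. Among T-MPAL-only SNVs it was 33.1% (24.7 to 42.3) of 118 and 32.2% (28.3 to 36.3) of 543. The difference between these differences was not tested.

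Most kept SNVs lay between genes or in introns. Intergenic sites made up 58.8% of shared, 63.1% (60.3 to 65.8) of M-MPAL-only and 69.0% (65.3 to 72.5) of T-MPAL-only SNVs, and intronic sites 33.8%, 30.9% and 26.8%. Known sites of dbSNP made up 12%, 8.58% and 10.6%. Genes with a kept SNV numbered 170 in the shared class, 357 in M-MPAL only and 173 in T-MPAL only. The M-MPAL-only and T-MPAL-only genes had 38 in common, 10.6% of the first list and 22.0% of the second. Lrp1b, a very long gene of an endocytic receptor, had 6 SNVs in M-MPAL only and 0 in the other classes.

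Protein-altering variants were few in each class, with 7 shared (2.81 to 14.4), 9 in M-MPAL only (4.12 to 17.1) and 10 in T-MPAL only (4.80 to 18.4). The list genes among them, both chromatin genes, were Setd2 and Smarca4, each in M-MPAL only. They were 2 of 117 list genes on chromosomes 1 to 19 (1.71%), against 25 of 20661 protein-coding genes there (0.121%), and nothing is read from a count of 2. Setd2, which encodes the enzyme that trimethylates lysine 36 of histone H3, had the stop codon Q1643X on 10 of 33 reads. Smarca4, which encodes the motor subunit of SWI/SNF remodelling complexes, had E535K on 25 of 53 reads. Both lie on chromosome 9, at positions 110564658 and 21642434. The share was 30.3% (15.6 to 48.7) at Setd2 and 47.2% (33.3 to 61.4) at Smarca4. Lepr, the leptin receptor gene, had a stop codon (G818X, 7 of 21 reads).

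The other M-MPAL-only variants were missense or splice site changes. Abcd2, a peroxisomal transporter gene on the gained chromosome 15, had A83T on 17 of 50 reads (34%, 21.2 to 48.8). D792N in Ttc16 was on 12 of 27 reads, A350S in the potassium chloride transporter gene Slc12a5 on 9 of 29, and L553P in Crim1 on 8 of 26. Splice site SNVs lay in Stau1, a gene of RNA binding, on 11 of 28 reads and in Arhgap42 on 11 of 19. None of these variants was called in T-MPAL.

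T-MPAL-only variants lay in other genes. Rbp4, the retinol carrier gene on chromosome 19, had the frameshift G25fs on 8 of 17 reads (47.1%, 23.0 to 72.2), an intermediate share on a chromosome where T-MPAL showed single alleles at shared sites. Cd180, a gene of a Toll-like receptor relative, had S163Y on 12 of 26 reads, and Acd, a gene of the telomere-binding shelterin complex, had G222D on 8 of 25. L21P in Tulp3 was on 10 of 27 reads and R287C in the chaperone gene Dnajc17 on 9 of 26. These lay between shares of 0.32 and 0.462. H123N in the NADPH oxidase gene Nox4 was on 8 of 31 reads, A494T in the esterase gene Ces2a on 8 of 27 and R6W in L3mbtl4 on 8 of 20. An in-frame deletion in D6Ertd527e (5 of 25 reads) and a splice site deletion in Tbc1d22a (9 of 20) lay in repeats.

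None of the shared protein-altering variants passed the Fisher's exact test between the fractions. The autophagy gene Atg5 had S106R on 7 of 19 reads in M-MPAL and 8 of 21 in T-MPAL. Pdhx, a gene of the pyruvate dehydrogenase complex, had G226D on 14 of 26 reads in M-MPAL and 8 of 14 in T-MPAL, and the sialidase gene Neu3 had R125H on 10 of 21 and 10 of 16. Csmd1, a large gene of a complement regulator family, had P3183S on 7 of 16 reads in M-MPAL and 9 of 22 in T-MPAL, and a second change, D742Y. The vitamin E carrier gene Ttpa had R32K, and the remaining site lay in a vomeronasal receptor gene. None of these genes is in the lists.

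Of the list genes on chromosomes 1 to 19, 13 of 117 (11.1%) had a kept variant of the 3 classes, against 1561 of 20661 protein-coding genes (7.56%) of the RefSeq table there. The list genes are longer, with a median of 36.6 kb against 17.5 kb, and length was not taken into account. Of 29 T-lymphoid genes, 1 had a kept variant (Jak3, shared, outside the exons), and of 28 myeloid genes 4 did, Nf1 in M-MPAL only and Dnmt3a, Nras and Runx1 in T-MPAL only, all outside the exons. Of 24 chromatin genes, Arid2, Crebbp and Kmt2c had a shared variant, Arid1b had different variants in each fraction, and Setd2 and Smarca4 are given above. Of 25 DNA repair genes, 1 had a variant (Brca1, T-MPAL only, outside the exons), and of 15 Myc network genes, 1 had (Mycn). No protein-altering variant lay in a T-lymphoid, myeloid, DNA repair or Myc network gene in any of the 3 classes.

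Mycn, the mouse gene of N-Myc, carried 3 synonymous SNVs in both fractions. R124R was on 13 of 39 reads in M-MPAL and 28 of 60 in T-MPAL. Q390Q was on 8 of 37 reads in M-MPAL and 28 of 57 in T-MPAL, and G307G on 8 of 33 and 12 of 33, both below the quality minimum in M-MPAL. No exonic SNV of Mycn was called in the empty control or in the other 4 libraries. Depths ran from 33 to 39 reads in M-MPAL and from 33 to 60 in T-MPAL, above the medians of 25 and 24 at shared SNVs. Reads of the retroviral N-Myc and of the mouse's own gene cannot be told apart in the tables.

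Promoters were the last class looked at, because a regulatory change can lie outside the exons. Of the 2372 SNVs of the 3 classes, 6 lay in RefSeq promoter windows of 250 bases before to 50 after a gene's start (32851 windows), 2 shared, 1 in M-MPAL only and 3 in T-MPAL only. The sequences around the 4 in named genes are given on the gene's strand (the minus strand of GRCm38.p6 for all 4), 5′ to 3′, from RefSeq, with the changed base in capitals as the reference has it.
Ldlrad3, chr2:102186498-102186558, shared: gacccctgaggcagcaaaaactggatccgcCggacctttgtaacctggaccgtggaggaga
Cbfa2t3, chr8:122678278-122678338, shared: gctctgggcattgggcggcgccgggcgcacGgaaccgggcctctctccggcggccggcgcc
Mkrn3, chr7:62420154-62420187, M-MPAL only: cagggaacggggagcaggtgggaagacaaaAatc
Fez2, chr17:78418308-78418368, T-MPAL only: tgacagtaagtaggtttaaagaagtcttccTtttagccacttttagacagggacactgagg
The site of Ldlrad3 lay 68 bases before the start and was on 10 of 25 reads in M-MPAL and 18 of 31 in T-MPAL. That of Cbfa2t3, a corepressor gene of blood cells, lay 133 bases before the start of that transcript and was on 11 of 21 reads in M-MPAL and 9 of 21 in T-MPAL. The files annotate it as intronic. The site of Mkrn3, an imprinted gene, lay 4 bases before the start and was on 9 of 23 reads in M-MPAL. The site of Fez2 lay 186 bases before the start and was on 15 of 30 reads in T-MPAL. No kept variant lay in any of 1005 miRNA hairpins of RefSeq.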

How the data were processed

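The deposited SNV and INDEL tables of 7 libraries give per call a Phred-like quality score, and a genotype field with read depth and counts of alternative reads, per the file headers. Reads were aligned with BWA to mm10 per the submitters' processing notes. Per the file headers and names, calls were made with samtools, copy number with FREEC, and annotation with ANNOVAR. None of their versions, filters or settings is given in the sources used here. Copy number was deposited as whole copies of regions with 1 kb resolution. The AUL copy number table was not used here.

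Calls on chromosomes 1 to 19 were matched by position and alleles. Passing calls had a median depth of 28 reads (M-MPAL) or 29 (T-MPAL and the control) before alleles of other libraries were dropped. The Fisher's exact test per site with Benjamini-Hochberg adjustment was the only test. The self-test on simulated data recovered most of the planted classes and differences. Its simulated sites were deeper than the shared SNVs here and missed calls were not simulated, so it does not measure recovery in these data. Gene spans and promoters came from RefSeq tables of GRCm38.p6. At 10 of 10 promoter sites looked up, the reference base of the files was the base of the window. All 121 list genes were found in that table.

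Named genes are those with a protein-altering variant of the 3 classes, leaving out olfactory, vomeronasal, Zfp, Gm and Rik genes, list genes with an exonic, splice site or UTR variant or inside a gain or loss, and the antigen receptor loci. The other genes named were chosen after their values were seen. Some sites are not reported here. Members and lists were chosen with earlier results of these data known, among them the shares on chromosomes 15, 18 and 19, which are therefore no independent support. Alternatives changed depth, quality, share, repeats, dbSNP sites, the libraries used to drop alleles, weak calls and the length of copy number calls. Scripts ran in Python 3.11.15 with scipy 1.17.1, pandas 2.3.3, numpy 2.4.6 and, for figures, matplotlib 3.10.9.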

Additional observations from a re-analysis of the deposited data

How the results depend on the processing

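No paired analysis was possible because each fraction has 1 library. Under the alternatives, 108 values stayed within the main interval or within 1.5 times the main count, and 41 moved. SNVs and INDELs of M-MPAL only outnumbered those of T-MPAL only in each alternative, while for protein-altering variants M-MPAL only led with quality of at least 200 and with a share of at least 0.3 (9 against 7). With a quality of at least 200, SNVs fell to 123 shared, 319 M-MPAL only and 205 T-MPAL only, INDELs to 105, 483 and 307, and protein-altering variants to 2, 2 and 0. Outside repeats there were 244, 667 and 326 SNVs and 25, 54 and 42 INDELs. With at least 20 reads there were 74, 674 and 534 INDELs, 3 shared protein-altering variants, and median shares of 0.423 in M-MPAL only and 0.458 in T-MPAL only. With weak calls counted as shared there were 1073 shared INDELs, and with no INDEL of the other 5 libraries within 10 bases 247, 1162 and 767. With only control alleles dropped there were 928 shared SNVs, of which 41.7% were C>T. Outside repeats C>T made up 54.9% of shared and 36.2% of T-MPAL-only SNVs, the T-MPAL-only median on chromosomes 18 and 19 was 0.511, and 7 shared SNVs of chromosome 15 lay on opposite sides of 0.5, among fewer sites. Without chromosomes 15, 18 and 19, an alternative chosen after seeing the data, the Fisher's exact test called 3 sites in all and 0 of the shared SNVs. Against that 0, 6 shared SNVs had an unadjusted p under 0.05. On chromosome 17 M-MPAL had 0 Mb gained with copy number calls of at least 50 kb, and 0.004 Mb gained without calls of the empty control. Over chromosomes 1 to 19 it had 0.131 Mb lost with calls of at least 50 kb. Outside repeats and segmental duplications the SNV depth measure was 0.595 in M-MPAL and 0.541 in T-MPAL on chromosome 18 and 1.62 in T-MPAL on chromosome 15. The INDEL depth ratio was 1.00 in both fractions on chromosome 19. The cause of these moves was not tested, beyond the fewer sites that stricter settings leave. Depth near 25 reads limits each share, so that single sites rarely pass the adjusted test, and subclones below a share of 0.2 are not seen.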

Other observations

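Adjacent SNVs were unevenly spread over the classes. Pairs at neighbouring positions numbered 17 among the 1235 SNVs of M-MPAL only and 2 among the 661 of T-MPAL only, against 3 among the 476 shared SNVs. Leaving out pairs with shares of at least 0.9, there were 15 in M-MPAL only, with shares of their first base from 0.323 to 0.571, and 1 in T-MPAL only. Among the 15 were CC to TT changes on chromosomes 8 and 13 and a GG to AA change in an intron of Park2, a ubiquitin ligase gene, on 11 of 30 and 9 of 32 reads. SNVs within 1000 bases of another of their class, adjacent pairs included, made up 3.97% (2.95 to 5.21) of M-MPAL only and 1.97% (1.05 to 3.34) of T-MPAL only. These intervals overlap, and the value for shared SNVs was 1.89% (0.868 to 3.56). The deposited SNV tables list such changes base by base, and whether both bases lie on the same reads is not in the tables.

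INDELs of single fractions differed in length from shared ones. Changes of 2 bases made up 50.6% (48.6 to 52.7) of M-MPAL-only and 53.3% (50.9 to 55.8) of T-MPAL-only INDELs, against 31.5% (27.1 to 36.1) of shared ones. Changes of 4 bases made up 32.3% and 26.9%, against 46.3%. Deletions of 2 bases accounted for most of the gap, with 23.9% in M-MPAL only and 26.9% in T-MPAL only, against 4.86% of shared INDELs. Insertions of 2 bases were alike, at 26.8% and 26.4% against 26.6%. Most lay in simple repeats, 83.9% in M-MPAL only, 83.6% in T-MPAL only and 76.6% of the shared.

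Of the 18 SNVs that passed the Fisher's exact test over all alleles called in both fractions, 8 lay on chromosome 18 and 3 each on chromosomes 15 and 19, all higher in T-MPAL. Higher in M-MPAL were 2 sites on chromosome 17 and 1 on chromosome 1. The remaining site lay on chromosome 8 in a segmental duplication and was higher in T-MPAL. Segmental duplications were not left out of this test, and outside them it called 24 sites, 6 of them shared SNVs. Mroh2a had the most kept SNVs of any gene, with 2 shared, 1 in M-MPAL only and 5 in T-MPAL only. Its sites had 110 to 120 reads in M-MPAL and 95 to 122 in T-MPAL, against medians of 24 reads over SNVs of M-MPAL only and 23 over those of T-MPAL only.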
